A study of Mus musculus with 16 samples.

Results

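Heat shock proteins and chaperonins are the folding helpers of the cell. They were taken here as all mouse genes whose symbols begin with Hspa, Hspb, Hspd, Hspe or Hsph and a number, with Hsp90, with Dnaja, Dnajb or Dnajc and a number, or with Cct2 to Cct8, leaving out pseudogenes named as such. The rule gave 77 genes of the 32989 identifiers in the count table, and 67 of them were among the 19049 genes that averaged 5 or more counts over the libraries and were tested. The 10 others had lower counts: Cct6b, Hspa1l, Hspa12a, Dnajb13, Dnajb7, Dnajc6, Dnajc22, Dnajc5b, Hspb7 and Hspb9. By name the tested members were 5 small heat shock proteins, 12 HSP70 or HSP110 chaperones, 3 HSP90 chaperones, both parts of the mitochondrial chaperonin, 7 CCT subunits, and 4, 10 and 24 J-domain proteins of classes A, B and C.

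HSP70 proteins hold unfolded chains in cycles of ATP binding, J-domain proteins bring them their clients, and HSP110 proteins reset the cycle. HSP90 acts later on nearly folded clients such as kinases and receptors, small heat shock proteins hold unfolding proteins without ATP, and the chaperonins are closed barrels, CCT in the cytosol for actin and tubulin and Hspd1 with its lid Hspe1 in mitochondria. Some members are made at all times and others chiefly after heat, through the factor HSF1, or after stress of the endoplasmic reticulum (ER). In skin, small heat shock proteins are known from keratinocytes that leave the basal layer.

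The cells came from hair follicle stem cell (HFSC) organoids, 3D cultures grown for 2 weeks from the epidermis of 4 C57BL/6J mice labelled wild type, for which the methods give young animals of both sexes with resting follicles. N1-acetylspermidine (N1-AcSpd), a polyamine with an acetyl group, was added for 72 h or not at all. Flow sorting then gave progenitors (α6+/CD34−) and HFSCs (α6+/CD34+). Each mouse gave 1 library to each of the 4 groups, so that there were 4 groups of 4 libraries of 3′ RNA-seq with unique molecular identifiers (UMIs). All groups had grown in Matrigel in a medium with hydrocortisone, insulin, EGF, VEGF, FGF2 and the kinase inhibitor Y27632, and both sorted populations came from the same culture of keratinocytes that balances them, not from skin directly.

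Libraries held 15480075 to 29074855 UMIs, and most CD34− libraries were deeper. The sort marker Cd34 ran from 2.87 to 3.65 CPM (counts over the TMM-scaled library total) in CD34− and from 43.4 to 64 CPM in CD34+ libraries. The keratinocyte gene Krt14 was at 4600 to 5710 CPM in every library. Summed levels of melanocyte, fibroblast and immune marker lists were at most 36.1, 1.52 and 6.81 CPM in any library, with Dct, Col1a1 and Ptprc at 0 in some libraries. Of 19 epidermal differentiation genes, all were lower in CD34+ cells in both conditions, and their summed level was 1850 to 3280 CPM in CD34− and 453 to 646 CPM in CD34+ libraries. Of 12 G2/M genes 11 were higher in untreated and 12 in N1-AcSpd CD34+ cells, with sums of 351 to 417 CPM in CD34− and 446 to 741 CPM in CD34+ libraries. Of 22 immediate early genes, which respond to dissociation among other things, 9 were lower and 2 higher in untreated CD34+ cells, and 11 lower and 2 higher with N1-AcSpd. The part of these differences in the results that follow was not tested, and in bulk samples fewer cells of a type and less RNA per cell cannot be told apart.

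The first comparison asked how the folding machinery of HFSCs differs from that of progenitors without supplementation. Of the members called, 24 were at lower levels in CD34+ cells, with Hspb1, the ER chaperones Hspa5 and Dnajc3, the mitochondrial chaperonin Hspd1 and the HSP110-type Hspa4 among them, and 15 were higher, Hspa2, Hspa4l, Dnajc9, Dnajb1 and Hspb8 among them. The differences were mostly modest, with Hspb1 1.49-fold and Hspa5 1.51-fold lower and Hspa2 2.96-fold higher. The heat-inducible Hspa1a, Hspa1b and Hsph1 did not pass the test. By edgeR's quasi-likelihood test, 39 of the 67 members had an adjusted p under 0.05 (58.2%), beside 32.1% of all genes tested. Of these 15 were higher and 24 lower in CD34+ cells, and over all genes 16.1% were higher and 16.1% lower. The median log2 fold change was -0.101 over the members and 0.022 over all genes.

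With N1-AcSpd, CD34+ and CD34− cells differed in 37 of 67 members (55.2%), beside 33.3% of all genes. Here 14 were higher and 23 lower, where 16.5% and 16.8% of all genes were, and the median log2 fold change was -0.047 over the members and -0.007 over all genes. In all, 33 members passed in both conditions, each in the same direction in both, 11 of them higher and 22 lower in CD34+ cells. The share of all genes that passed in both was not counted, so this agreement cannot be read as particular to the members. A further 6 passed in untreated cells only and 4 with N1-AcSpd only, and for none of these did the test of the difference pass.

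The split between higher and lower members depends on the scaling. TMM sets the reference by genes that change little, and with plain library totals the median of all genes moved by over 0.1, to 0.137 in untreated and 0.109 in N1-AcSpd cells. With library totals 19 members were higher and 13 lower in untreated CD34+ cells, so that the higher share of calls went from 38.5% to 59.4%, and 23 were higher and 12 lower with N1-AcSpd, from 37.8% to 65.7%. A scaling moves all genes alike, so the median of the members less that of all genes hardly moved, from -0.123 with TMM to -0.122 with library totals in untreated cells and from -0.04 to -0.039 with N1-AcSpd. Every member called with TMM kept its sign with library totals. Of the lower members described below, Hspa8, Dnajb6 and 5 CCT subunits were not called with library totals in untreated cells, nor were Dnajb9 (-0.12) and Dnajb4 (-0.44), and with N1-AcSpd neither were Hspa8, Hspa9 (-0.14), Dnajb6, Hsp90b1 (-0.20), Dnajb11 (-0.11), Dnajc3 (-0.14) and 4 CCT subunits. Sequence shared with other genes may also bear on the counts, and 25 of the 67 members were set apart for it. By name they were Cct3, Cct6a, Cct8, Dnaja1, Dnaja3, Dnaja4, Dnajb14, Dnajc1, Dnajc7, Dnajc11, Dnajc14, Dnajc17, Dnajc25 and Dnajc30. The remaining ones were Hsp90aa1, Hsp90b1, Hspa1a, Hspa1b, Hspa4l, Hspa8, Hspb1, Hspb2, Hspb6, Hspd1 and Hspe1. All but Dnajc17 share at least 100 bases at 95% identity, on either strand, with a gene holding at least 10% of their counts. Dnajc17 was set apart because its counts nearly equal those of an overlapping gene. Whether tags fall in the shared stretches was not examined. Hspd1 and Hspe1 were set apart through a 112-base overlap on opposite strands. Among the other 42 members, 11 were higher and 11 lower in untreated CD34+ cells, and 10 higher and 11 lower with N1-AcSpd.

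**Figure D1:**
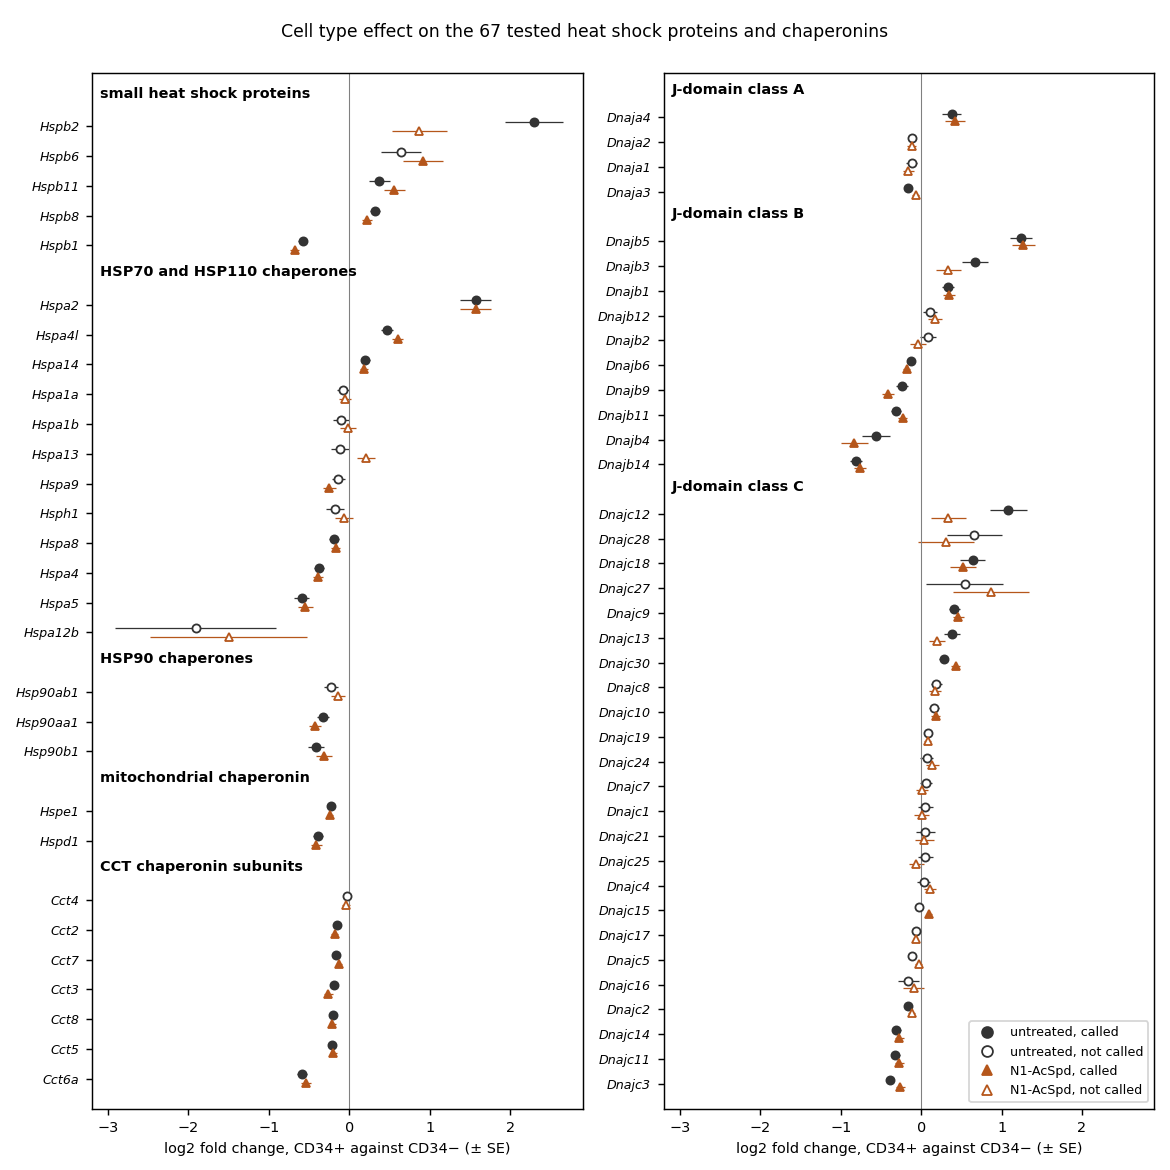
Log2 fold change of CD34+ against CD34− cells for the 67 tested members, by role, in untreated (circles) and N1-AcSpd-treated (triangles) organoids. Bars are standard errors and filled symbols have an adjusted p under 0.05; both symbols of the mitochondrial chaperonin lie below 0 for each gene, 6 of 7 CCT subunits are filled below 0 in both conditions, and Hspa2 and Dnajb5 lie above 1.

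Among small heat shock proteins, Hspb1 (HSP27, which holds unfolding proteins and binds actin filaments) was lower in CD34+ cells. Of the other 4 tested 3 were called higher in each condition, where 16.1% and 16.5% of all genes were higher. They were Hspb2, Hspb8 and Hspb11 in untreated cells and Hspb6, Hspb8 and Hspb11 with N1-AcSpd. Hspb1 lies on chromosome 5 at 135887919 to 135889563 of GRCm38. It was at 1262, 1411, 1313 and 1387 CPM in untreated CD34− libraries of mice 1 to 4, and at 862.8, 966.8, 846.1 and 927.4 CPM in untreated CD34+ libraries. The groups did not overlap. With N1-AcSpd it was at 1545, 1742, 1632 and 1740 CPM in CD34− and at 1038, 1084, 977.1 and 1047 CPM in CD34+ libraries, again without overlap. Its log2 fold change was -0.58 ± 0.053 (SE) in untreated cells, with an edgeR adjusted p of 2.68e-06, and -0.68 ± 0.053 with N1-AcSpd (adjusted p = 7.22e-07). Hspb1 is among the members set apart for shared sequence. Summed with its copies Hsp25-ps1 and Gm9817, it was at 1182, 1334, 1141 and 930.2 CPM in untreated CD34+ libraries. With N1-AcSpd the CD34+ sums were 1429, 1485, 1349 and 1437 CPM. All lay below the CD34− sums, given further below. In untreated CD34+ replicate 4 the copies held 23 and 32 counts.

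Hspb8, which works with Bag3 in the removal of misfolded proteins, moved the other way. It was at 31.94, 33.07, 30.04 and 33.95 CPM in untreated CD34− and 40.38, 40.57, 36.63 and 43.91 CPM in untreated CD34+ libraries. All CD34+ libraries were thus above all CD34− libraries. The log2 fold change was 0.32 ± 0.063 (edgeR adjusted p = 0.00138), and 0.22 ± 0.063 with N1-AcSpd (adjusted p = 0.0163), where the call was lost without N1-AcSpd CD34− replicate 3 (0.19), without N1-AcSpd CD34+ replicate 4 (0.17), and without mouse 1 or 2 (0.24 and 0.21). Bag3 itself was not called in untreated cells (log2 fold change 0.09 ± 0.076) and was higher in CD34+ cells with N1-AcSpd (0.22 ± 0.076, edgeR adjusted p = 0.0424).

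Hspb11, a part of the transport machinery of cilia, was higher in CD34+ cells with N1-AcSpd (0.56 ± 0.13, edgeR adjusted p = 0.00407). In untreated cells its log2 fold change was 0.37 ± 0.13 (adjusted p = 0.0436), a call that was lost with the mouse as a block (adjusted p = 0.0638) and in 16 of 20 runs that left out a library or mouse, in which the value ranged from 0.24 to 0.44. Hspb2 and Hspb6 are low and are named here after their values were seen. Hspb6 was at 0.64 ± 0.25 in untreated cells (edgeR adjusted p = 0.0624) and at 0.92 ± 0.25 with N1-AcSpd (adjusted p = 0.0104), a call that was lost without mouse 1, 2 or 4 (0.83, 0.80 and 0.84). Hspb2, a muscle-type member, was at 0.4299, 0.1915, 0.4761 and 0.2706 CPM in untreated CD34− and at 2.104, 2.083, 1.626 and 1.13 CPM in untreated CD34+ libraries, a log2 fold change of 2.30 ± 0.36 (edgeR adjusted p = 0.000235). With N1-AcSpd it was 0.87 ± 0.34 (adjusted p = 0.0623, and 0.0399 with the mouse as a block). Its neighbour on the other strand, Cryab, which encodes another small heat shock protein, went down in the same cells (-0.69 ± 0.15, and -1.53 ± 0.15 with N1-AcSpd, edgeR adjusted p = 0.00297 and 4.56e-06).

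The HSP70 group split. Hspa5 (BiP, the HSP70 of the ER) was lower in CD34+ cells, at 186.8, 157.7, 193 and 187.8 CPM in untreated CD34− and 121.5, 111, 135.7 and 112.3 CPM in untreated CD34+ libraries. The lowest CD34− library stood above the highest CD34+ library, and all 4 mice moved the same way. The log2 fold change was -0.59 ± 0.093 (edgeR adjusted p = 0.000277), and with N1-AcSpd -0.55 ± 0.093 (adjusted p = 0.000401). Hspa4, an HSP110-type exchange factor for HSP70, was at 51.76, 58.42, 59.13 and 56.37 CPM in untreated CD34− and at 41.8, 43.7, 47.79 and 40.52 CPM in untreated CD34+ libraries. Its groups did not overlap either, with log2 fold changes of -0.38 ± 0.065 and -0.39 ± 0.065 (edgeR adjusted p = 0.000571 and 0.000382).

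Hspa4l, a close relative of Hspa4 with the same kind of activity, went the opposite way. It was at 28.89, 28.73, 24.84 and 23.4 CPM in untreated CD34− and 39.01, 35.97, 34.52 and 36.72 CPM in untreated CD34+ libraries, and at 27.59, 25.79, 25.88 and 23.53 against 37.42, 41.02, 38.88 and 38.33 CPM with N1-AcSpd. CD34+ libraries were higher in every mouse and without overlap. The log2 fold changes were 0.47 ± 0.07 (edgeR adjusted p = 0.000196) and 0.60 ± 0.07 (adjusted p = 1.84e-05). Hspa2, known best from male germ cells, had the largest increase among members averaging 50 counts or more. It was at 2.407, 2.618, 1.731 and 2.435 CPM in untreated CD34− and 5.971, 8.059, 4.823 and 8.371 CPM in untreated CD34+ libraries, and at 2.104, 1.951, 1.71 and 1.804 against 4.269, 5.519, 5.888 and 6.809 CPM with N1-AcSpd. Its log2 fold change was 1.57 ± 0.19 in both conditions (edgeR adjusted p = 3.06e-05 and 2.63e-05).

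The constitutive Hspa8 (HSC70) differed little. It was at 578.6, 625.2, 566.2 and 603.8 CPM in untreated CD34− and 493.6, 556.8, 504.2 and 519.1 CPM in untreated CD34+ libraries. The groups came close but did not overlap in untreated cells, and they overlapped with N1-AcSpd. The log2 fold changes were -0.19 ± 0.057 (edgeR adjusted p = 0.0179) and -0.17 ± 0.057 (adjusted p = 0.036). The first call was lost without untreated CD34− replicate 2 or untreated CD34+ replicate 1 (both -0.17) and without mouse 3 or 4 (-0.21 and -0.19), the second in 10 of 20 such runs, in which 8 of the libraries and mice 3 and 4 were left out, at values of -0.13 to -0.17, and both with library totals (-0.08 and -0.05). Pseudogene copies of Hspa8 such as Gm6210 hold counts of their own. Hspa9, the HSP70 of mitochondria, was at -0.14 ± 0.081 in untreated cells (adjusted p = 0.214) and -0.25 ± 0.081 with N1-AcSpd (edgeR adjusted p = 0.0256, lost in 7 of 20 such runs, those without N1-AcSpd CD34− replicates 1 or 3, N1-AcSpd CD34+ replicates 2 or 4, or mouse 1, 2 or 4, at -0.21 to -0.27).

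Hspa1a, Hspa1b and Hsph1, which respond to heat, gave no call, while Hsp90aa1, Dnajb1 and Hspb1, which do so too, were called in differing directions. Hspa1a was at 33.53, 35.62, 34.02 and 33.14 CPM in untreated CD34− and at 31.68, 34.59, 29.53 and 33.43 CPM in untreated CD34+ libraries, and the groups overlapped. The log2 fold change was -0.08 ± 0.077 (edgeR adjusted p = 0.523), and that of Hspa1b was -0.10 ± 0.098 (adjusted p = 0.502). These genes encode nearly the same protein, and their transcripts are 99.2% identical over 2201 bases, so their counts are uncertain one against the other. Hsph1 (HSP105) stood at -0.18 ± 0.11 (adjusted p = 0.251) and with N1-AcSpd at -0.07 ± 0.11 (adjusted p = 0.721). Of the factors that drive them, Hsf1 was at -0.07 ± 0.085 and Hsf2 at 0.18 ± 0.19 in untreated cells, and none of the 3 tested of 8 listed HSF factors and regulators was called in either cell type comparison.

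**Figure D2:**
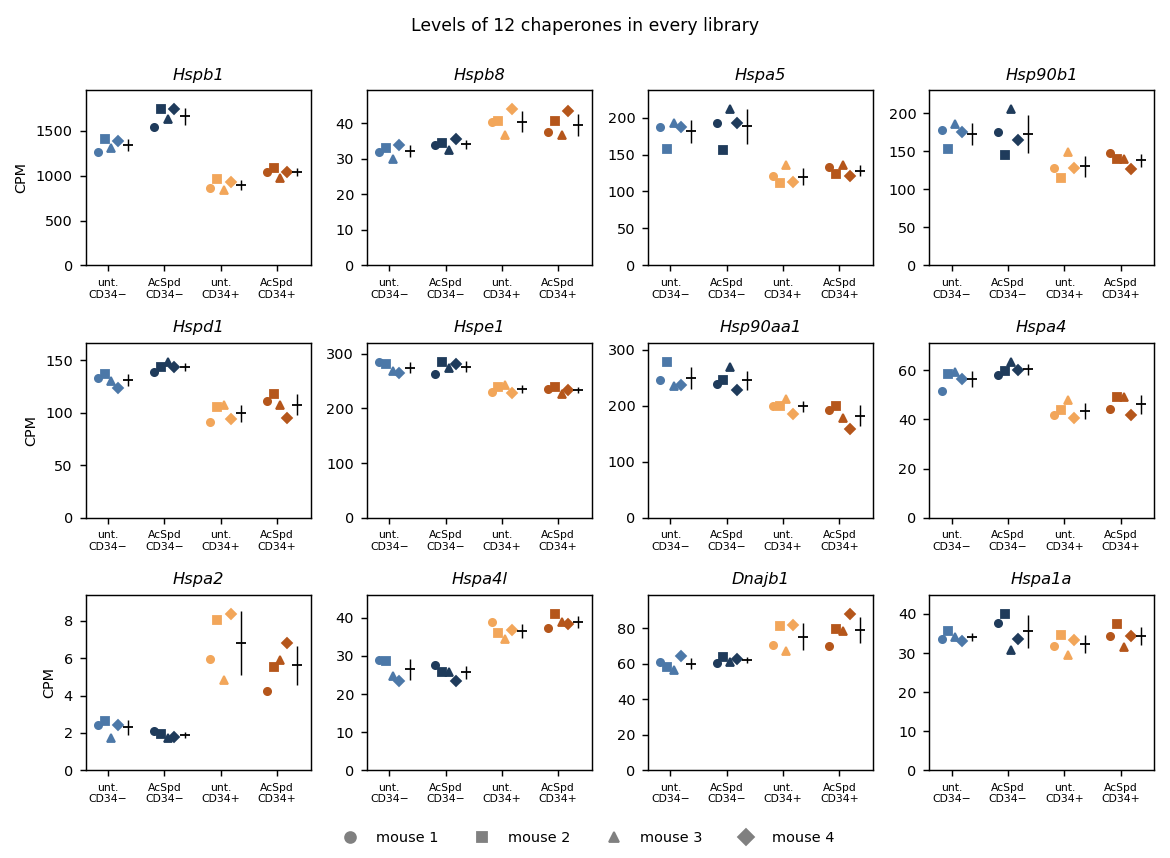
CPM (linear axes from 0) of 12 members in the 16 libraries, with unt. for untreated, AcSpd for N1-AcSpd, a symbol for each mouse, and black marks for the mean and SD of 4 libraries. CD34+ libraries lie below CD34− libraries for Hspb1, Hspa5, Hspd1, Hspe1 and Hspa4 and above them for Hspa2, Hspa4l and Dnajb1, and the 4 groups overlap for Hspa1a.

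Of the HSP90 chaperones, Hsp90aa1, the inducible cytosolic form, was at 246.6, 278.7, 235.9 and 237.6 CPM in untreated CD34− and 198.8, 198.9, 211.5 and 186 CPM in untreated CD34+ libraries. Again every CD34− library was above every CD34+ library. The log2 fold change was -0.33 ± 0.077 (edgeR adjusted p = 0.00464) and -0.43 ± 0.077 with N1-AcSpd (adjusted p = 0.000646), and pseudogene copies such as Gm12346, 99.5% identical over 2255 bases, hold counts too. For the constitutive Hsp90ab1 the values were -0.23 ± 0.089 (adjusted p = 0.069) and -0.14 ± 0.089 (adjusted p = 0.283), and the first passed with the mouse as a block (adjusted p = 0.00743). Hsp90b1 (GRP94), the HSP90 of the ER, was at 177.7, 153, 185.5 and 175.4 CPM in untreated CD34− and 128, 115.7, 149 and 128.1 CPM in untreated CD34+ libraries. Its log2 fold changes were -0.41 ± 0.10 (edgeR adjusted p = 0.00651) and -0.32 ± 0.10 (adjusted p = 0.0241), and the groups overlapped with N1-AcSpd. Hsp90b1 overlaps 1810014B01Rik on the other strand, and the strand setting of the counting is not given in the sources used here. The call was lost without mouse 1 or 4 in untreated cells (both -0.39), and with N1-AcSpd without N1-AcSpd CD34− replicate 1 (-0.31) or 3 (-0.23), N1-AcSpd CD34+ replicate 4 (-0.28), or mouse 1, 3 or 4 (-0.34, -0.24 and -0.30).

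Of the members known from the ER, Hspa5, Hsp90b1 and the J-domain proteins Dnajb11, Dnajb9 and Dnajc3 were called lower in CD34+ cells in both conditions. Dnajb14 of the ER membrane was called lower in both too, but its counts are uncertain. Dnajc18, another J-domain protein of that membrane, was called higher in both, with values below. Several others were not called lower, J-domain proteins among them. Some of these members were named after their values were seen, and the list is not complete. Dnajc10 (ERdj5), which reduces disulfide bonds, was at 0.16 ± 0.059 (edgeR adjusted p = 0.0882) and higher with N1-AcSpd (0.18 ± 0.059, adjusted p = 0.0305). That call was lost without N1-AcSpd CD34− replicate 1 or 2, N1-AcSpd CD34+ replicate 2 or 4, or mouse 1, 2 or 4, at 0.13 to 0.20. Dnajc1 (0.05 and 0.01), Dnajc25 (0.05 and -0.06) and Hspa13 (-0.12 and 0.21) gave no call. Dnajc3 (P58IPK) was at 32.5 ± 1.77 CPM (SD, n = 4) in untreated CD34− and 24.7 ± 0.466 CPM in untreated CD34+ libraries, log2 fold changes of -0.39 ± 0.053 and, with N1-AcSpd, -0.26 ± 0.053 (edgeR adjusted p = 7.91e-05 and 0.00165). Dnajb11 was at -0.31 ± 0.06 and -0.23 ± 0.06 (adjusted p = 0.00134 and 0.00936, the second lost without mouse 1 or 4, at -0.22 and -0.20). Dnajb9 was at -0.24 ± 0.071 and -0.41 ± 0.071 (adjusted p = 0.0203 and 0.000482). Its first call was lost without untreated CD34− replicate 3 or 4 (both -0.20), untreated CD34+ replicate 1 (-0.22), or mouse 2 or 3 (-0.26 and -0.18). In the fixed list of other ER folding genes, 12 of 22 were lower and 2 higher in untreated CD34+ cells, and 8 lower and 2 higher with N1-AcSpd, where 16.1% and 16.8% of all genes were lower. Counts of this and the other fixed lists, and values of single genes outside the members, are given with TMM scaling only. A change of scaling moves them as it does the members. The smallest p belonged to Edem1, which helps clear misfolded ER proteins (-0.39 ± 0.05 and -0.31 ± 0.05), and to Manf, a secreted ER stress protein (-0.54 ± 0.083 and -0.52 ± 0.083).

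Promoters of 3 of these ER genes hold the ER stress response element, CCAAT and CCACG with 9 bases between them, which was found on either strand in 0.137% of the 27025 genes with a promoter (250 bases before to 50 after the start, RefSeq, GRCm38.p6). They are shown because Hspa5, Hsp90b1 and Dnajc3 were lower together, so the choice followed the values. Of the 54 tested members with a promoter, only these 3 held the element. Dnajb11 and Dnajb9, also called lower in both conditions, were not among the 3. Capitals mark the match, read 5′ to 3′ on the strand of the gene, and Hsp90b1 holds a second match in the reverse direction nearer its start. Hspa5 (chr2:34772020-34772048, plus strand), Hsp90b1 (chr10:86705633-86705661 and chr10:86705528-86705556, minus strand) and Dnajc3 (chr14:118937822-118937850, plus strand) read as follows.
Hspa5: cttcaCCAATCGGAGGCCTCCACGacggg
Hsp90b1, far: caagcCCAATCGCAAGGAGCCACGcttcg
Hsp90b1, near: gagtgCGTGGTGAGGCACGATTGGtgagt
Dnajc3: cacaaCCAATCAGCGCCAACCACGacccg
The matches begin 65, 212, 107 and 105 bases before the start. A match is a description of these letters, and binding was not measured.

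The mitochondrial chaperonin was lower in CD34+ cells in both of its parts. Hspd1 (HSP60) was at 133.4, 136.5, 130.6 and 123.3 CPM in untreated CD34− and 91.5, 105.8, 107.4 and 93.73 CPM in untreated CD34+ libraries, and Hspe1 (HSP10) at 284.2, 281, 268.7 and 265.1 against 229.8, 239.5, 242.9 and 227.5 CPM. Neither gene overlapped between the groups. The log2 fold changes of Hspd1 were -0.39 ± 0.067 and -0.41 ± 0.067 (edgeR adjusted p = 0.000485 and 0.000285). Those of Hspe1 were smaller, -0.23 ± 0.035 and -0.24 ± 0.035 (adjusted p = 0.000226 and 0.000119). Both calls held with library totals and in all 20 runs without a library or mouse. Grpel1, the exchange factor of mitochondrial HSP70, was lower as well (-0.29 ± 0.035 and -0.34 ± 0.035), and Hscb, a J-domain protein for iron-sulfur clusters, was higher (0.49 ± 0.086 and 0.48 ± 0.086). In the fixed list of mitochondrial folding and proteolysis genes, 4 of 15 were higher and 4 lower in untreated CD34+ cells, and 3 higher and 7 lower with N1-AcSpd, beside 32.1% and 33.3% of all genes called.

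Hspd1 and Hspe1 lie head to head on chromosome 1, and their GENCODE gene models overlap by 112 bases. A stretch upstream of both of their RefSeq starts holds a heat shock element, 3 units of GAA or TTC in turn with 2 bases between units, matched on either strand. Such an element was in 0.662% of the 27025 genes with a promoter and in 4 of the 54 tested members with a promoter, Dnajb6, Hspd1, Hspe1 and Hsph1. In Hsph1 the match lies after the start. The capitals below cover 2 overlapping matches at chr1:55088054-55088081, read on the Hspd1 strand (minus), and for comparison the match of Dnajb6 at chr5:29735844-29735872 (plus strand).
Hspd1 and Hspe1: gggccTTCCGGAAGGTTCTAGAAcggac
Dnajb6: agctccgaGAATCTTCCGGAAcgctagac
Dnajb6 was lower too (-0.13 ± 0.04 and -0.18 ± 0.04, edgeR adjusted p = 0.024 and 0.00259), while Hsph1 was not called, so members with a match differed in outcome. The first of these Dnajb6 calls was lost in 7 of 20 runs, without untreated CD34− replicate 2, untreated CD34+ replicate 1 or 4, or any mouse, at -0.11 to -0.13.

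Most subunits of the CCT chaperonin were lower in CD34+ cells, by small steps. Of 7 tested, 6 were called lower in both conditions and none higher, where 16.1% of all genes were lower in untreated and 16.8% in N1-AcSpd cells, and all 7 values lay below 0 in each. Of these 6, Cct6a, Cct3 and Cct8 are among the members that share a stretch with another gene. Cct5 was at 199 ± 7.79 CPM (SD, n = 4) in untreated CD34− and 172 ± 8.17 CPM in untreated CD34+ libraries, a log2 fold change of -0.21 ± 0.046 (edgeR adjusted p = 0.00298). Cct8 was at -0.20 ± 0.044, Cct3 at -0.19 ± 0.05, Cct7 at -0.17 ± 0.033 and Cct2 at -0.15 ± 0.044 (adjusted p = 0.00389, 0.0102, 0.00153 and 0.0167). With N1-AcSpd these 5 ranged from -0.13 to -0.26. Cct4 did not pass in either condition (-0.03 ± 0.045 and -0.04 ± 0.045). Tcp1, the first CCT subunit, whose symbol the rule does not match, was also lower (-0.15 ± 0.032 and -0.16 ± 0.032, adjusted p = 0.0027 and 0.0013).

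The CCT calls rest on the scaling. With library totals 1 of 7 subunits was called lower in untreated and 2 of 7 with N1-AcSpd, at values of -0.04 to -0.09 in untreated cells for Cct2, Cct3, Cct5, Cct7 and Cct8, all still below 0, while Cct4 was above 0 there (0.09 and 0.08). Calls of Cct2 (mice 2 and 4, at -0.16 and -0.11) and Cct3 (mouse 3, at -0.19) in untreated cells, and of Cct2 (mouse 3, at -0.14), Cct5 and Cct7 (mouse 4, at -0.18 and -0.12) with N1-AcSpd, were lost without these mice. Of 12 tested prefoldins and other partners of CCT, 5 were lower and 1 higher in untreated CD34+ cells, and 5 lower and 3 higher with N1-AcSpd, beside the same 32.1% and 33.3% of all genes called. Pfdn5, a prefoldin subunit, was higher (0.27 ± 0.042 and 0.25 ± 0.042, edgeR adjusted p = 0.00027 and 0.000469).

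Cct6a and Dnajb14 were also lower in CD34+ cells, but their counts are uncertain. Cct6a was at -0.59 ± 0.059 and -0.54 ± 0.059, and Dnajb14, a J-domain protein of the ER membrane, at -0.81 ± 0.073 and -0.76 ± 0.073 (edgeR adjusted p = 5.75e-06 and 9.71e-06, and 2.2e-06 and 3.37e-06). Transcripts of Dnajb14 share stretches of 101 to 210 bases, at 95 to 99% identity, with 60 genes that hold at least 10% of its counts. Of these 58 were called lower in untreated CD34+ cells and the median of their log2 fold changes was -0.81. For Cct6a there were 34 such genes, 30 of them called lower, with a median of -0.745. Whether tags of these genes and of the members can be told apart was not examined. The same holds for Dnajc17, whose counts were within 2% of those of an overlapping gene model, Gm14138, and for Dnajc14, which overlaps Ormdl2 (r = 0.999 of log counts over 16 libraries, which share depth).

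The J-domain proteins went both ways. Of 4 class A members 1 was higher and 1 lower in untreated CD34+ cells, of 10 class B members 3 and 5, and of 24 class C members 5 and 4, where 16.1% of all genes were higher and 16.1% lower. With N1-AcSpd these counts were 1 and 0, 2 and 5, and 5 and 3. Dnajb1 (HSP40), the main partner of inducible HSP70, was at 60.96, 58.35, 56.57 and 64.08 CPM in untreated CD34− and 70.52, 81.42, 67.14 and 81.66 CPM in untreated CD34+ libraries. The groups did not overlap. The log2 fold changes were 0.33 ± 0.075 and 0.35 ± 0.075 (edgeR adjusted p = 0.00424 and 0.00247), and the first was 0.27 and not called without mouse 2. Dnajc9, a partner of HSP70 that also handles histones, was at 24.2 ± 1.58 against 32.2 ± 1.34 CPM (SD, n = 4), or 0.41 ± 0.068 and 0.46 ± 0.068 (adjusted p = 0.000379 and 0.000146). Dnajc18 was at 0.64 ± 0.16 and 0.52 ± 0.16 (adjusted p = 0.00639 and 0.0191). The second call of Dnajc18 was lost without N1-AcSpd CD34− replicate 3 (0.40), N1-AcSpd CD34+ replicate 4 (0.42), or mouse 2, 3 or 4 (0.55, 0.41 and 0.45).

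Dnaja4 was at 0.38 ± 0.12 and 0.42 ± 0.12 (edgeR adjusted p = 0.025 and 0.0145), with overlapping groups and with 8 of 20 runs without a call in untreated cells, those without untreated CD34− replicate 1 or 3, untreated CD34+ replicate 1, 2 or 4, or mouse 1, 2 or 4, at 0.32 to 0.38. With N1-AcSpd it was lost without mouse 2 or 4 (0.39 and 0.40). Dnaja4 shares 1581 identical bases with Wdr61, which overlaps it on the other strand. Wdr61 averaged 2046 counts against 176.2 for Dnaja4, so the counts of Dnaja4 are uncertain. Dnaja1, the partner of HSC70 for import into mitochondria, was at -0.12 ± 0.069 and -0.16 ± 0.069 (adjusted p = 0.21 and 0.0894), and the second passed with the mouse as a block (adjusted p = 0.0292). The blocked fit also called Dnaja2 (adjusted p = 0.0496 and 0.0373) and Dnajc8 (0.0265 and 0.0473) in both conditions. Dnajb4, a relative of Dnajb1, was lower (-0.56 ± 0.17 and -0.83 ± 0.17, adjusted p = 0.0207 and 0.00163). Its first call was lost without untreated CD34− replicate 2 or 3 (-0.51 and -0.52), untreated CD34+ replicate 2 or 3 (-0.50 and -0.47), or mouse 2 or 3 (-0.44 and -0.42). Dnajb5, named after its values were seen, was at 1.51 ± 0.131 CPM in untreated CD34− and 3.56 ± 0.625 CPM in untreated CD34+ libraries (SD, n = 4), log2 fold changes of 1.24 ± 0.14 and 1.27 ± 0.14 (adjusted p = 2.05e-05 and 1.31e-05).

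Of the fixed list of 28 cytosolic co-chaperones, 3 were higher and 8 lower in untreated CD34+ cells, and 4 higher and 7 lower with N1-AcSpd. These 11 of 28 in each condition stand beside 32.1% and 33.3% of all genes, so the share was near the background. The smallest p belonged to Fkbp5, a partner of HSP90 on steroid receptors, which was at 15.8 ± 1.58 CPM in untreated CD34− and 31.7 ± 1.79 CPM in untreated CD34+ libraries (SD, n = 4). Its log2 fold change was 1.01 ± 0.071 (edgeR adjusted p = 5.68e-07), and 0.94 ± 0.071 with N1-AcSpd.

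Over all 77 members the summed level was 7939 to 8201 CPM in untreated CD34− and 6063 to 6470 CPM in untreated CD34+ libraries, and 8380 to 8927 against 6363 to 6813 CPM with N1-AcSpd. Without Dnajb14, Hspb1 and Dnajc17, which hold much of the sum, it was 4567 to 4753 against 3925 to 4136 CPM, and 4580 to 4849 against 3910 to 4274 CPM. These sums are given as a description.

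The next comparison asked what N1-AcSpd did to these genes within each population. In CD34− progenitors Hspb1 rose and was the only member called. Its 4 treated libraries, given above, all lay above the 4 untreated ones, and the rise was seen in all 4 mice, 1.24-fold or 0.31 ± 0.053 on the log2 scale (edgeR adjusted p = 0.0237). This 1 call of 67 (1.49%) stands beside 0.614% of all genes. At an unadjusted p under 0.05 there were 9 members, 8 of them higher, where 13.6% of all genes passed and 7.24% were higher. The median over members was 0.029 and over all genes 0. Of the 19 epidermal differentiation genes none was called with treatment, but 7 passed 0.05 before adjustment in progenitors and 5 in HFSCs, with median log2 fold changes over the 19 of 0.34 and 0.30. Their summed level was 1850 to 2540 CPM in untreated and 2280 to 3280 CPM in N1-AcSpd CD34− libraries, and 453 to 512 against 469 to 646 CPM in CD34+ libraries. Their part in the rise of Hspb1 was not tested.

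The call of Hspb1 was not kept in every alternative fit. It was lost without untreated CD34− replicate 1 or 3 (0.28 and 0.30), without N1-AcSpd CD34− replicate 2, 3 or 4 (0.29, 0.32 and 0.29) and without any mouse (0.30 to 0.32), and with the compared groups alone (0.31, adjusted p = 0.089). Across its other alternatives, leaving out runs aside, the adjusted p ran from 1.78e-06 with DESeq2 to 0.0373 without a low-count filter. The pseudogene Hsp25-ps1 is 99.4% identical to Hspb1 over 630 bases. It held 3610 to 12270 counts in 15 libraries and 23 in untreated CD34+ replicate 4, in which Hspb1 itself lay within the range of its group. Summed with its copies Hsp25-ps1 and Gm9817, Hspb1 was at 1722, 1921, 1798 and 1892 CPM in untreated and 2154, 2398, 2253 and 2403 CPM in N1-AcSpd CD34− libraries, again without overlap.

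In CD34+ HFSCs no member was called by edgeR without the mouse as a block, beside 0.325% of all genes. Hspb1 had the smallest p and was higher in all 4 mice without overlap of the groups, at 0.20 ± 0.053 (edgeR adjusted p = 0.136). With the mouse as a block its adjusted p was 0.00935, and DESeq2 gave 0.00449. DESeq2 also called Cct6a (0.22, adjusted p = 0.0326), whose counts are uncertain as said above. At an unadjusted p under 0.05 there were 13 members, 8 higher and 5 lower, where 13.2% of all genes passed and 6.78% were higher.

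Beside Hspb1, no other member was called with treatment, Hspa1a and Hsph1 included. In CD34− cells Hspa1a was at 37.66, 40.02, 30.74 and 33.66 CPM with N1-AcSpd, and in CD34+ cells at 34.37, 37.38, 31.52 and 34.28 CPM, each overlapping its untreated group. Hsph1 was at 23.4 ± 3.02 CPM in untreated and 22.3 ± 2.34 CPM in N1-AcSpd CD34− libraries (SD, n = 4). Among decreases the smallest p belonged to Dnajc21, a J-domain protein of ribosome assembly, at -0.30 ± 0.12 in CD34− (edgeR adjusted p = 0.274) and -0.31 ± 0.12 in CD34+ cells (adjusted p = 0.294). Of the CCT subunits 4 of 7 in CD34− and 2 of 7 in CD34+ cells passed 0.05 before adjustment, all of them upward and none called. Over all genes 13.6% and 13.2% passed, 7.24% and 6.78% of them all upward. Medians over the 7 subunits were 0.104 and 0.053. Of the 4 in CD34− cells, Cct3, Cct6a and Cct8 share a stretch with another gene. Of the other fixed folding lists, Grpel1 was called in CD34− cells (0.18 ± 0.035, adjusted p = 0.042), and no gene of the HSF, co-chaperone, ER or CCT partner lists was called in either population.

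**Figure D3:**
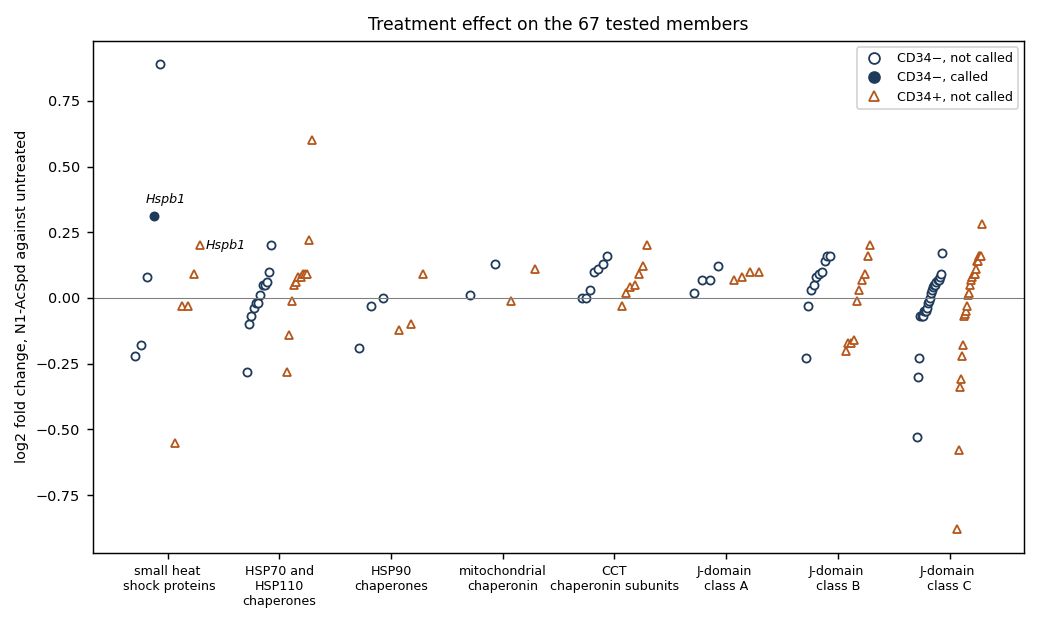
Log2 fold change of N1-AcSpd against untreated cells for the 67 tested members, by role, in CD34− (circles) and CD34+ (triangles) cells, each symbol being 1 gene and filled where the adjusted p is under 0.05. The only filled symbol is Hspb1 in CD34− cells at 0.31, and its triangle lies at 0.20.

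Whether the treatment acted differently in the 2 populations was tested by the interaction. No member and no gene was called (0.0% of all genes), and 3 of 67 members had an unadjusted p under 0.05, beside 4.19% of all genes. DESeq2 called 71 genes and no member. For Hspb1 the interaction was -0.11 ± 0.075 (edgeR adjusted p = 1.0), so a larger rise in CD34− than in CD34+ cells was not shown. The smallest p among members averaging 50 counts or more was that of Dnajc15, a J-domain protein of the mitochondrial import motor (0.13 ± 0.045), and among decreases that of Dnajb9 (-0.17 ± 0.10), both with an edgeR adjusted p of 1.0.

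Several members also differed between mice, whatever the population or treatment. In mouse 2, Hsph1, Hspa8, Dnaja1, Hspa1a and Hspb1 were each at their highest of the 4 mice in all 4 groups. Hsph1 was at 27.26, 24.48, 23.36 and 25.09 CPM in the 4 libraries of mouse 2, and at 18.42 to 24.26 CPM in the 12 others. Of 59 members averaging 50 counts or more, these 5 had that rank, where 1.48% of the 12444 genes with such a count had it. For the other mice 0, 1 and 1 members ranked highest in all groups, in mice 1, 3 and 4.

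The ER pair went another way. Hspa5 was highest in mouse 3 in all 4 groups, and in mouse 2 it was lowest in 3 of them, by 0.20, 0.26 and 0.11 below the group mean on the log2 scale, with Hsp90b1 0.17, 0.24 and 0.16 below in the same libraries. Hsp90ab1 was lowest in mouse 4 in every group. Over the 16 libraries, which share mice and cultures, deviations from the group means went together for Hsph1 and Hspa8 (Pearson r = 0.91), Hsph1 and Dnaja1 (r = 0.90), Hspa5 and Hsp90b1 (r = 0.92) and Hsp90aa1 and Hsp90ab1 (r = 0.92). They did not for Hsph1 and Hspa5 (r = -0.57). These are descriptions, chosen after the values were seen, and what differed between the mice or their cultures was not tested.

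**Figure D4:**
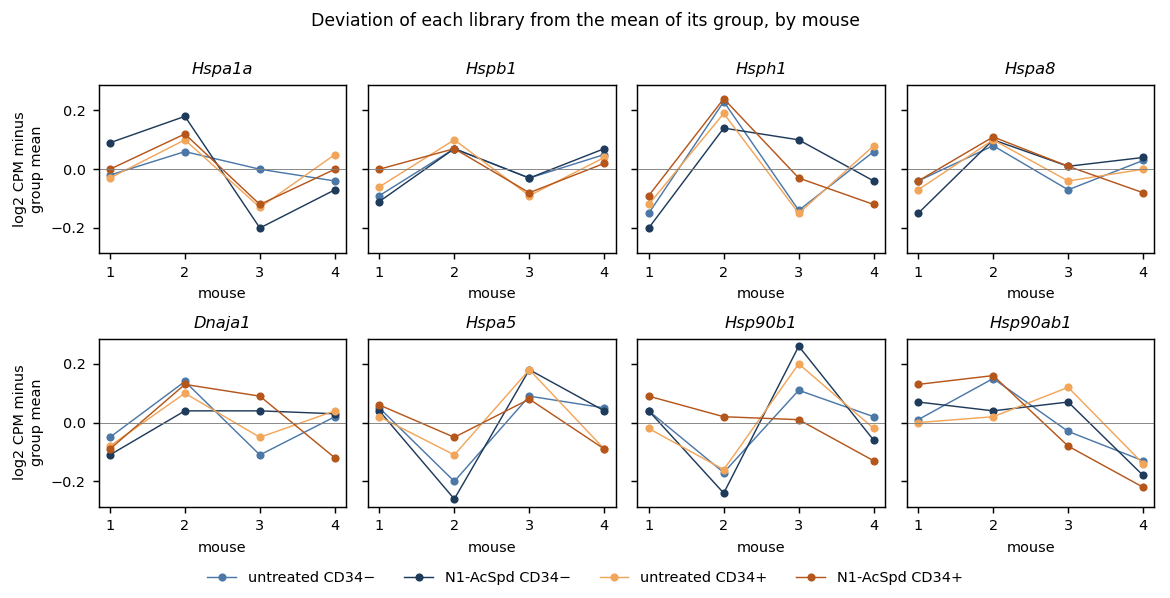
Deviation of log2 CPM from the mean of its group for 8 members, by mouse, with a line for each of the 4 groups. All 4 lines peak at mouse 2 for Hspa1a, Hspb1, Hsph1, Hspa8 and Dnaja1 and at mouse 3 for Hspa5, and those of Hsp90ab1 are lowest at mouse 4.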

How the data were processed

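For 3′ RNA-seq of 16 libraries, the authors demultiplexed reads with FLEXBAR, aligned them to mm10 with kallisto (0.45.0 in the submitters' processing notes), intersected them with genes by BEDTools and deposited, per gene and library, the count of unique UMI tags, not normalized. Empty cells of the table (156050) were read as 0. The 94 identifiers without a symbol hold 0.125% of the counts. Symbols and positions came from GENCODE M21 (GRCm38), promoters from RefSeq (GRCm38.p6). A promoter was matched for 54 of the 67 tested members.

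Genes averaging 5 or more counts were fitted with edgeR 4.0.16 (R 4.3.3), quasi-likelihood test, TMM scaling, 1 model of 4 group means over 16 libraries and Benjamini-Hochberg adjustment over 19049 genes. A gene was called at an adjusted p under 0.05. Each SE was taken from the log2 fold change and its F value, as their ratio after a square root of F. DESeq2 1.42.0, other scalings, filters, thinning, the compared groups alone, the mouse as a block and leaving out each library or mouse were alternatives. The test was tried on simulated counts first. Within groups chi-square over degrees of freedom for any pair of libraries was at least 27.9, so no library was a copy of another.

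The replicate number stands for the mouse in the labels, so it pairs libraries. The correlation of same-mouse deviations over all genes had a mean of 0.0133 and a range of -0.0689 to 0.0858 over 24 pairs. Over the tested members alone the mean was 0.183 and the range -0.443 to 0.873.

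Members and lists were chosen with earlier results of these data known. Named in each comparison were members fixed by role, the 5 called members with the largest increase and the 5 with the largest decrease among those averaging 50 counts or more, or, with none called in a direction, the member with the smallest p. Of each other list the 2 genes with the smallest p could be named. Hspa4, Hspa13, Dnajc1, Dnajc10, Dnajc25, Dnajb11, Dnajb6, Dnaja2, Dnajc8, Dnajb5, Hspb2, Hspb6, Bag3, Cryab, Tcp1, Hsf1, Hsf2 and genes sharing sequence with members were named after their values were seen. The rule also matches 4 genes not analysed here, Cct8l1, Dnajb8, Dnajc5g and Hspb3.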

Additional observations from a re-analysis of the deposited data

Results flagged for a closer look

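In 34 members with values named above, each of the 4 groups was examined for a library far from the other 3, by the gap to the nearest library over the whole range against Dixon's limit for 4 samples, and 10 of 136 groups passed, where chance gives about 1 in 20. Mouse 4 was apart in 4 of these. In it, Hsp90ab1 was at 436 CPM in N1-AcSpd CD34− cells, below the 507 to 519 CPM of the other mice, and Cct2 was at 61.8 CPM in untreated CD34+ cells, below 68.0 to 68.6 CPM. Dnajc3 in mouse 4 was at 25.4 CPM in untreated CD34+ cells, above 24.4 to 24.6 CPM, and at 25.5 CPM in N1-AcSpd CD34+ cells, below 28.3 to 28.5 CPM. Mouse 1 was apart in N1-AcSpd CD34− cells for Cct5 (200 CPM, others 217 to 220 CPM), Dnaja1 (165 CPM, others 182 to 185 CPM) and Dnajb9 (11.9 CPM, others 10.1 to 10.4 CPM). Mouse 3 was lowest for Dnaja4 in untreated CD34+ cells (7.1 CPM, others 9.78 to 10.3 CPM) and for Dnajc18 in N1-AcSpd CD34− cells (1.79 CPM, others 2.62 to 2.73 CPM), and mouse 2 was highest for Cct3 in untreated CD34− cells (111 CPM, others 101 to 102 CPM). What set these libraries apart was not tested.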

How the results depend on the processing

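No called value changed sign under any alternative. Of 1538 alternative values for 55 results on single genes, 1439 kept their direction and side of the threshold, 97 were no longer called and 2 were newly called. These 55 results do not cover every member in every comparison. The mouse as a block newly called further members, printed above, so these figures do not show how often uncalled members become called. Members called numbered 39 in untreated and 37 in N1-AcSpd cells for the cell type effect. Among the 42 members not set apart for shared sequence they numbered 22 and 21. That alternative was chosen after seeing the data, and fewer members are counted in it. Without 1 library or mouse the counts of 39 and 37 ranged from 29 to 40 and from 26 to 37. With the mouse as a replicate block they were 41 and 41. For treatment in CD34− cells the 1 member called became 0 with the compared groups alone, and 0 to 1 without 1 library or mouse. Among members sharing no stretch the count was 0 by construction, since Hspb1 itself is left out there, so it tests nothing. For treatment in CD34+ cells the count of 0 became 1 with the replicate block and 2 with DESeq2. The block changed no call of a member other than those printed above. Over all genes, treatment calls were 117 with edgeR and 489 with DESeq2 in CD34− cells, 62 and 394 in CD34+ cells, and 0 and 71 for the interaction. In all 20 runs without a library or mouse, 24 of the 39 and 23 of the 37 calls held. Where no cause is shown by the setting itself, the cause was not tested. Depth was 15480075 to 29074855 UMIs, and thinning every library to the smallest gave 36 and 37 calls.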
